A study of Drosophila melanogaster with 39 samples.

Results

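Whole testes of Paf1L mutant flies were compared with whole testes of control flies. The comparison used 9 of the 39 samples of the series: 3 libraries of Paf1L mutants, 3 of the control stock w1118 and 3 of a second control stock, w1118 iso. They were chosen by their labels in the table of whole-testis values, and no measured value entered the choice. The Drosophila melanogaster males were 1 to 3 days old. The mutants were transheterozygous, which means that each fly carried a pair of different mutant alleles of Paf1L; the genotype is labelled Paf1L TH2, and the alleles are not described further. Neither control stock is named as the background of the mutants, so differences between the stocks were tested for each gene. The stock result is given for many of the genes described but not for all. Where it is not given, the gene should not be taken as free of a stock difference. The other 12 whole-testis libraries were Cdc73L, Ctr9L and Leo1L mutants, the last from a cross in both directions. They entered the filter on low values and the fit, so they shaped the spread behind every p-value. Their own levels are given only to show where Paf1L mutants stood apart. Spermatocytes sorted from other flies, Paf1L FS1 homozygous mutants and controls that all carried GFP-tagged Cdc73L, gave a separate readout with 3 columns per group. The sorted controls are labelled w1118, and each column joins an rRNA-depleted and a not rRNA-depleted library. Whether these controls share the background of the w1118 whole-testis stock was not tested.

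The PAF1 complex travels with RNA polymerase II during elongation and is needed for several chromatin marks of transcribed genes. Paf1L is a testis paralog of its Paf1 subunit. The male germ line turns on a large set of genes in spermatocytes, many of them used later to build the sperm, and keeps genes of other tissues at low levels. Whole testes hold germ cells of all stages together with hub, cyst, pigment and muscle cells, so a difference in RNA level can come from any of them. Fewer cells of a type and less RNA per cell cannot be told apart in such samples.

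Values are the authors' GeTMM signals, and they are compared between groups for the same gene only. Depth was estimated from the lowest values at 8.66 to 12.8 M reads per library, 3 reads were worth a signal of 0.224 to 0.378, and 10605 to 10900 genes per library reached a signal of 1. That floor covers counting error only. Nothing in the labels says that replicates came from separate groups of flies, so p-values measure the spread between these libraries. Marker genes of spermatocytes and spermatids were present in each library, and accessory gland markers varied more among the Paf1L libraries (summed signals of 250, 2584 and 5914) than among the controls (874 to 3576). With the accessory gland score as a covariate, 120 genes were raised and 141 lowered, against 121 and 139 without it.

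CG12674, the gene of Paf1L (FBgn0031388, chr2L:2079919-2081286, plus strand), had signals of 6.67, 2.84 and 5.08 in Paf1L testes, against 59.7, 58.1 and 47.6 in w1118 and 51.5, 56.5 and 56.8 in w1118 iso testes. All 3 mutant libraries were far below all 6 controls, and the control stocks did not differ beyond their spread (log2 difference -0.00044, iso minus w1118). Its log2 fold change was -3.31 (SE 0.15, limma, Benjamini-Hochberg adjusted p = 3.01e-11). CG10887, the gene of Leo1L, had 77.1, 72.4 and 70.7 in Paf1L testes, against 58.4 to 67.7 in w1118 and 53.7 to 70.0 in w1118 iso; it lay just above all controls (log2 fold change 0.22, limma adjusted p = 0.0314). CG9899, the third testis paralog measured, averaged 117 in Paf1L testes and 116 in controls. Among the 6 genes of the canonical complex, none passed the fold limit. Rtf1, which encodes a factor that works with the complex, was higher at 168, 162 and 168 in Paf1L testes, against 117 to 152 in both control stocks (log2 fold change 0.26, limma adjusted p = 0.0332). Against w1118 and w1118 iso alone neither gene passed the test (limma adjusted p of 0.0656 and 0.0693 for CG10887, 0.0680 and 0.0734 for Rtf1). No canonical gene was higher with only the 9 libraries in the fit or without any 1 of the Paf1L replicates. Of 21 tested genes within 100 kb, CG12674 itself was lowered, CG33543, which also differed between the stocks, was raised, and 8 differed at any fold.

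The words raised and lowered are kept for genes that passed the limma test (adjusted p under 0.05) and whose log2(signal + 1) changed by 1 or more; this scale understates changes of genes with low signals. Of 10925 tested genes, 121 were raised (1.11%) and 139 were lowered (1.27%) in Paf1L testes. At any fold, 1513 genes were higher (13.8%) and 1640 lower (15%), so most of the differences that passed the test were under the fold limit. The balance between these counts depended on the processing: rescaling each library to a common total gave 2270 higher and 1282 lower genes, a fit of only the 9 libraries gave 955 and 1178, and leaving out Paf1L replicate 1 gave 990 and 1176. Of the raised genes, 54 had a control mean signal under 2 and 32 had one under 1. For 110 of the 121 raised genes every Paf1L library lay above every control library, and for 98 of the 139 lowered genes every Paf1L library lay below every control, against 10.8% and 10.5% of all tested genes.

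Of the 4 raised genes with the largest log2 fold changes, unc79, kek3 and CCHa1 did not differ between the stocks, and CG33669 (3.47) did. unc79 (FBgn0038693, chr3R:19230764-19246130, minus strand), which encodes a subunit of the sodium leak channel complex, had signals of 39.2, 47.1 and 37.2 in Paf1L testes, against 0.762, 1.84 and 2.41 in w1118 and 3.52, 1.84 and 2.52 in w1118 iso. The lowest mutant value was over the highest control by a wide margin, and the log2 fold change of 3.79 (SE 0.21, limma adjusted p = 3.9e-10) was the largest among raised genes. kek3 (FBgn0028370, chr2L:15552723-15583978, plus strand), a membrane protein of the Kekkon family with leucine-rich repeats, had 39.4, 39.3 and 34.4 in Paf1L testes, against 1.20, 1.75 and 3.69 in w1118 and 4.27, 1.37 and 3.06 in w1118 iso (log2 fold change 3.52, SE 0.22). CCHa1 (FBgn0038199, chr3R:14092504-14096835, minus strand), the gene of the neuropeptide CCHamide-1, had 21.1, 20.9 and 25.0 in Paf1L testes, against 0.326, 0.371 and 1.70 in w1118 and 1.40, 1.17 and 2.92 in w1118 iso (log2 fold change 3.43, SE 0.21). In each of these genes the groups did not overlap. CG32333, for which no role is given here, came next (2.92). The plot of the 15 raised genes with the largest changes shows the same separation library by library, with CG33669 as the exception in which one stock was itself high.

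**Figure D1:**
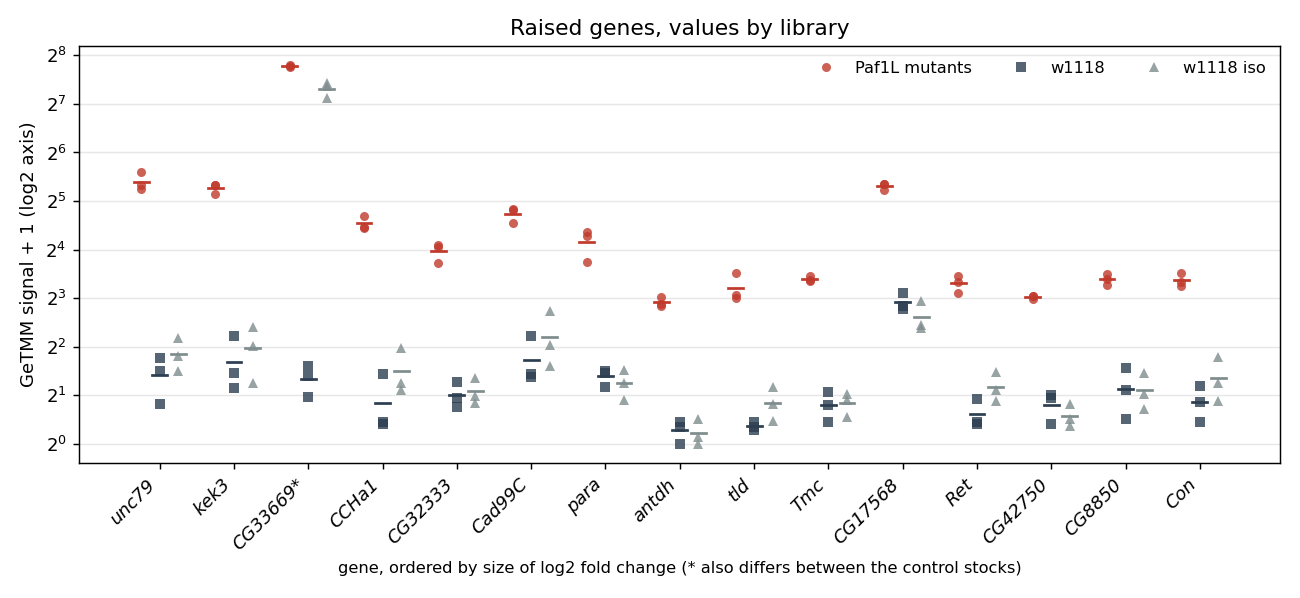
GeTMM signal + 1 on a log2 axis in each library for the 15 raised genes with the largest log2 fold change among those whose Paf1L libraries all lay above all controls. Points are libraries, bars are group mean signals (n = 3 each), and an asterisk marks a gene that also differed between the control stocks. For unc79 the Paf1L libraries lie at 37.2 to 47.1, above all controls, while for CG33669 the w1118 iso libraries lie close to the mutants.

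Some ion channel genes were raised. para, the voltage-gated sodium channel of neurons, had 19.6, 18.4 and 12.4 in Paf1L testes, against 1.26 to 1.83 in w1118 and 0.868 to 1.88 in w1118 iso (log2 fold change 2.83, SE 0.15). Tmc, a channel-like protein of mechanosensory neurons, averaged 9.54 ± 0.420 (SD, n = 3) in Paf1L testes and 0.766 ± 0.295 (SD, n = 6) in controls (log2 fold change 2.59, SE 0.17). Neither gene differed between the stocks. In the list of 39 tested ion channels, 2 were raised (unc79 and para) and none was lowered, against 1.11% and 1.27% of all tested genes. At any fold 9 were higher and 5 lower, against 13.8% and 15% of all tested genes. The median log2 fold change of the list was -0.08. Without Paf1L replicate 3 the lower channels were 3. One of the lower channels, chosen after its values were seen, was the potassium channel Shab (means of 3.27 in Paf1L testes and 5.87 in controls). na, the pore of the channel complex that unc79 belongs to, averaged 8.82 in Paf1L testes and 4.55 in controls (log2 fold change 0.88, limma adjusted p = 3.56e-05), and also differed between the stocks.

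Genes for neuropeptides, hormones and their receptors were called in both directions, 6 raised and 5 lowered, and were grouped after their calls were seen. Besides CCHa1, 5 receptors were raised, and none of these 6 genes differed between the stocks. TkR86C and CNMaR, receptors of tachykinin and CNMamide peptides, averaged 9.59 ± 0.638 and 5.75 ± 1.22 in Paf1L testes and 4.06 ± 0.470 and 1.51 ± 0.437 in controls. FMRFaR, the receptor of FMRFamide peptides, had 6.61, 8.01 and 6.93 in Paf1L testes, against 0.0914 to 0.958 in w1118 and 0.624 to 1.90 in w1118 iso (log2 fold change 2.19). Dh44-R1, a receptor of the diuretic hormone Dh44, had 4.58, 4.83 and 4.20 in Paf1L testes, against 0.630 to 1.00 in w1118 and 0.625 to 0.973 in w1118 iso (log2 fold change 1.62). Both were near the 3-read floor in several controls. DopEcR, a receptor of dopamine and ecdysteroids, averaged 7.24 ± 1.36 (SD, n = 3) in Paf1L testes and 1.77 ± 0.552 (n = 6) in controls. The lowered genes were Pdfr, Dh31-R and Lgr1, which encode receptors of the peptide PDF, of the diuretic hormone Dh31 and of a glycoprotein hormone, Lst, the gene of the peptide hormone Limostatin, and Nplp2, a neuropeptide-like precursor. Lgr1 averaged 3.81 ± 0.622 in Paf1L testes and 10.3 ± 2.72 in controls (log2 fold change -1.20), and Lst 3.85 ± 1.54 in Paf1L testes and 10.4 ± 2.70 in controls (-1.25); both were called against each stock alone. Pdfr had 3.78, 3.97 and 4.09 in Paf1L testes, against 12.8 to 21.7 in w1118 and 5.82 to 8.80 in w1118 iso, so the stocks differed too (log2 fold change -1.28). Dh31-R (-1.12) and Nplp2 (-1.58) overlapped the controls and did not pass the test against w1118 iso alone (limma adjusted p of 0.225 and 0.246). Dh31-R lost its call without w1118 replicate 3 (log2 fold change -0.97), Paf1L replicate 1 or Paf1L replicate 3 (limma adjusted p of 0.0645 and 0.108), and Nplp2 without Paf1L replicate 1 or 2 (0.0896 and 0.0988).

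Of the genes for making or moving transmitters, 3 were raised, and 2 of them differed between the stocks. Gad1, which makes the transmitter GABA, averaged 8.41 ± 2.47 in Paf1L testes and 2.00 ± 1.24 in controls, with no stock difference. prt, a vesicular transporter, had 25.5, 28.5 and 22.6 in Paf1L testes, against 3.64 to 5.99 in w1118 and 7.16 to 11.2 in w1118 iso (log2 fold change 1.80); the stocks differed, and it was called against each. Nos, the nitric oxide synthase, had 9.28, 8.88 and 8.39 in Paf1L testes, against 4.00 to 5.54 in w1118 and 1.88 to 2.64 in w1118 iso, and its log2 fold change was 0.79 against w1118 and 1.63 against w1118 iso. DopEcR and Gad1 were the 2 raised members among 46 tested synapse and neuron genes, and none was lowered (1.11% and 1.27% over all tested genes). At any fold 10 were higher and 7 lower, against 13.8% and 15% of all tested genes (median log2 fold change 0.02). The lower members were 4 without Paf1L replicate 1 and 2 without Paf1L replicate 3. Of the partners of the raised peptide and receptors, only CCHa1-R and Dh44 are given here, and neither passed the test. CCHa1-R averaged 2.20 in Paf1L testes and 3.15 in controls, and Dh44 9.38 in Paf1L testes and 7.68 in controls.

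Some chemosensory genes were raised from low control values. Or1a, an odorant receptor, had 5.27, 4.15 and 5.03 in Paf1L testes, against 0.108, 0 and 0.179 in w1118 and 0.134, 0.195 and 0.520 in w1118 iso (log2 fold change 2.30, SE 0.16). Ir68b, an ionotropic receptor of sensory neurons, had 3.95, 5.20 and 4.88 in Paf1L testes, against 0.185 to 0.441 in w1118 and 0.197 to 0.595 in w1118 iso (log2 fold change 2.06). Most control values of both genes were at or near the signal of 3 reads. Of 253 chemosensory receptors and odorant-binding proteins in the table, 54 passed the filter on low values. Of these 54, 5 were raised and none was lowered, against 1.11% and 1.27% of all tested genes. The others were Ir68a (log2 fold change 1.21), Obp49a (1.07) and Or13a (1.40), the last also higher in w1118 iso than in w1118. Obp49a fell under the fold limit without w1118 replicate 1 or w1118 iso replicate 3 (log2 fold changes of 0.98 and 0.97). Since a gene at 0 in controls could pass the filter only through groups in which it was expressed, this count describes the genes that passed and not the family.

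Cell adhesion and axon guidance genes were also among those raised. Cad99C, a protocadherin of microvilli, had 22.3, 27.5 and 27.3 in Paf1L testes, against 1.58 to 3.66 in w1118 and 2.03 to 5.68 in w1118 iso (log2 fold change 2.83, SE 0.23). Con, the adhesion protein Connectin of muscles and motor neurons, had 9.03, 8.55 and 10.5 in Paf1L testes, against 0.368 to 1.29 in w1118 and 0.836 to 2.44 in w1118 iso (log2 fold change 2.30). ft, the atypical cadherin Fat, had 10.6, 12.2 and 11.6 in Paf1L testes, against 2.20 to 4.31 in w1118 and 6.38 to 6.64 in w1118 iso, so its rise was larger against w1118 (log2 fold change 1.68) than against w1118 iso (0.73). Of 33 tested cadherins and adhesion genes, 3 were raised (kek3, Cad99C and ft) and none was lowered, against 1.11% and 1.27% of all tested genes. At any fold 9 were higher and 4 lower, against 13.8% and 15% of all tested genes, and the median log2 fold change was 0.04. Leaving out Paf1L replicate 1 or 2 left 5 higher, and leaving out Paf1L replicate 1 or 3 left 2 lower. Together with axon guidance genes such as beat-Ic (log2 fold change 2.26), 10 genes of adhesion and guidance were raised, 2 of which differed between the stocks. This grouping was made after the calls were seen.

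Growth factor and patterning genes included a pair with low control values. Ret, a receptor tyrosine kinase of neurons, had 7.58, 9.92 and 9.14 in Paf1L testes, against 0.323, 0.370 and 0.910 in w1118 and 1.77, 1.16 and 0.831 in w1118 iso (log2 fold change 2.42, SE 0.20). tld, the protease Tolloid that frees BMP ligands, had 7.35, 10.5 and 7.06 in Paf1L testes, against 0.214 to 0.358 in w1118 and 0.376 to 1.25 in w1118 iso (log2 fold change 2.61). Both were separated from all controls. In the list of 54 tested developmental regulators only pb and B-H2, both homeobox genes, were raised and none was lowered (1.11% and 1.27% over all tested genes). Both differed between the stocks: B-H2 had 33.9, 29.1 and 30.5 in Paf1L testes, against 5.72 to 8.37 in w1118 and 22.7 to 40.2 in w1118 iso, where it overlapped the mutants. Its call was lost without w1118 replicate 3, w1118 iso replicate 3 or Paf1L replicate 1 (log2 fold changes of 0.98, 0.94 and 0.98). Outside the list, wda, a subunit of the chromatin complex SAGA, averaged 46.6 ± 3.75 in Paf1L testes and 11.5 ± 0.874 in controls, and Clk, a transcription factor of the circadian clock, 211 ± 12.6 in Paf1L testes and 94.7 ± 17.3 in controls. These were chosen after their values were seen.

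Enzyme genes made up 12 of the raised genes, and some of these calls were lost with 1 library left out. Amy-p and Mal-A6 lost theirs without w1118 replicate 3 or any 1 of the Paf1L replicates (limma adjusted p of 0.0523 to 0.144 and 0.0557 to 0.0988). Whether these 2 differed between the control stocks is not given here. Cyp28d2 fell under the fold limit without w1118 replicate 1, w1118 iso replicate 2 or 3, or Paf1L replicate 2 (log2 fold changes of 0.89 to 0.999). antdh, a dehydrogenase named for its expression in antennae, had 6.15, 7.18 and 6.36 in Paf1L testes, against 0, 0.278 and 0.357 in w1118 and 0, 0.0981 and 0.423 in w1118 iso (log2 fold change 2.68, SE 0.19). FASN2, a fatty acid synthase, and ATPsyndelta, a subunit of mitochondrial ATP synthase, were chosen after their values were seen. FASN2 averaged 48.1 ± 5.45 in Paf1L testes and 11.7 ± 3.32 in controls. ATPsyndelta averaged 171 ± 18.3 in Paf1L testes and 58.9 ± 7.08 in controls (log2 fold change 1.53). Of the 121 raised genes, 60 were given a role, and the rest include CG17568 (36.6, 39.8 and 39.6 in Paf1L testes, against 5.85 to 7.60 in w1118 and 4.24 to 6.64 in w1118 iso), CG32333, CG42750 and CG8850, for which no role is given here.

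The lowest log2 fold change belonged to CG8584 and not to the mutated gene. CG8584 (FBgn0033322, chr2R:8700692-8701794, minus strand), a gene with no role given here, had 9.02, 9.07 and 9.85 in Paf1L testes, against 168, 188 and 199.9 in w1118 and 203, 195 and 175 in w1118 iso. The log2 fold change was -4.19 (SE 0.06, limma adjusted p = 3.35e-19), and no control library came near the mutants. Of 26 tested genes within 100 kb, CG8584 alone was called, while 11 differed at any fold. In the other whole-testis mutants it had means of 161 ± 8.74 in Cdc73L testes and 148 ± 8.44 in Ctr9L testes (SD, n = 3 each). Leo1L testes averaged 137 ± 1.12, and those of the inverted cross 150.6 ± 7.12. Paf1L mutants were lower than each of them (log2 differences of -3.98, -3.85 and -3.81 for Cdc73L, Ctr9L and both Leo1L crosses). In sorted spermatocytes of the other Paf1L genotype, CG8584 had 109.8, 114 and 107, against 131, 133 and 129 in sorted controls (log2 fold change -0.25, limma adjusted p = 0.0333). It was lowered in TH2 whole testes and did not pass the fold limit in FS1 spermatocytes. Alleles, flies and cells all differ between the tables and cannot be told apart.

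Of 12 tested Y-linked genes, 4 were lowered, against 1.27% of all tested genes. ORY, a coiled-coil gene of the Y chromosome, had 9.15, 6.11 and 7.69 in Paf1L testes, against 26.8, 29.3 and 22.9 in w1118 and 30.0, 27.4 and 45.7 in w1118 iso (log2 fold change -1.84, SE 0.15). kl-2, an axonemal dynein heavy chain needed for sperm motility, had 15.2, 16.4 and 14.7 in Paf1L testes, against 35.6 to 41.1 in w1118 and 39.5 to 42.6 in w1118 iso (log2 fold change -1.32, SE 0.08). kl-5, another such heavy chain, had 30.4, 25.2 and 29.3 in Paf1L testes, against 67.2 to 91.2 in w1118 and 58.8 to 73.4 in w1118 iso (log2 fold change -1.30). These genes, and CCY (-1.26), were the 4 lowered members; all were called against each stock alone and none differed between the stocks. At any fold 8 of the 12 were lower, against 15% of all tested genes, and the median log2 fold change was -0.51. kl-3, the remaining dynein gene of the list, averaged 90.8 in Paf1L testes and 128 in controls (log2 fold change -0.50), and WDY (-0.87) and Pp1-Y1, which encodes a protein phosphatase (-0.52), were likewise lower without passing the fold limit. FDY went the other way, with means of 14.4 in Paf1L testes and 7.74 in controls, but it also differed between the stocks (11.8 in w1118 iso and 3.71 in w1118, on average). The Y copies Mst77Y-13 and Mst77Y-4 of a sperm chromatin gene were raised (log2 fold changes 1.09 and 1.12), but fell under the fold limit without w1118 iso replicate 3 (0.98) and without Paf1L replicate 3 (0.97). The third raised gene of the Y chromosome was CG45765, for which no role is given here (means of 836 in Paf1L testes and 384 in controls). The stocks differed in none of these 3 raised genes, but neither Mst77Y copy was called against each stock alone. Reads of such near-identical copies can be assigned to the wrong copy, so the values of the Mst77Y genes are uncertain.

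The other lists of the late male germ line held 1 lowered gene and no raised one, and their shares of lower members at any fold differed. ND-51L1, a testis form of a subunit of respiratory complex I, had 79.1, 68.4 and 55.7 in Paf1L testes, against 145 to 160.2 in w1118 and 155 to 161 in w1118 iso (log2 fold change -1.21, SE 0.08). It was the only lowered member of 19 tested testis-specific respiratory chain genes, of which 13 were lower and 1 (SdhBL) higher at any fold, with a median log2 fold change of -0.25; against w1118 alone 8 were lower. The other members, such as SdhAL (116 in Paf1L testes and 196 in controls, log2 fold change -0.76), did not pass the fold limit. Of 22 cup and comet transcripts, which are transcribed in spermatids, none was called and 11 were lower at any fold (median -0.29), the lowest being d-cup at 24.1 in Paf1L testes and 42.6 in controls. Leaving out w1118 replicate 2, w1118 iso replicate 1 or any 1 of the Paf1L replicates left 6 or 7 of the 22 lower, as did rescaling to a common total (7); 5 were lower with only the 9 libraries and 4 against w1118 alone. Of 13 tested sperm tail genes (the Mst and don juan families) 5 were lower and 1 higher (median -0.13), and 3 were lower without Paf1L replicate 2 or 3. Of 9 sperm chromatin genes 1 was lower and none higher (median -0.06). Of 14 tested testis TAFs and meiotic arrest genes, which switch on the spermatocyte program, 6 were higher and none lower at any fold (median 0.19), the largest being mia at 59.5 in Paf1L testes and 37.4 in controls (log2 fold change 0.65). Of 17 early germline genes 1 was higher and 1 lower, and of 17 meiosis genes 3 were higher and 2 lower. The medians of the respiratory chain, cup and comet and meiotic arrest lists kept their signs when each library was rescaled to a common total and under quantile normalization. That of the sperm chromatin genes turned to 0.01 under rescaling, and that of the sperm tail genes to 9.99e-05 under quantile normalization; the median of all tested genes was 0.00.

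**Figure D2:**
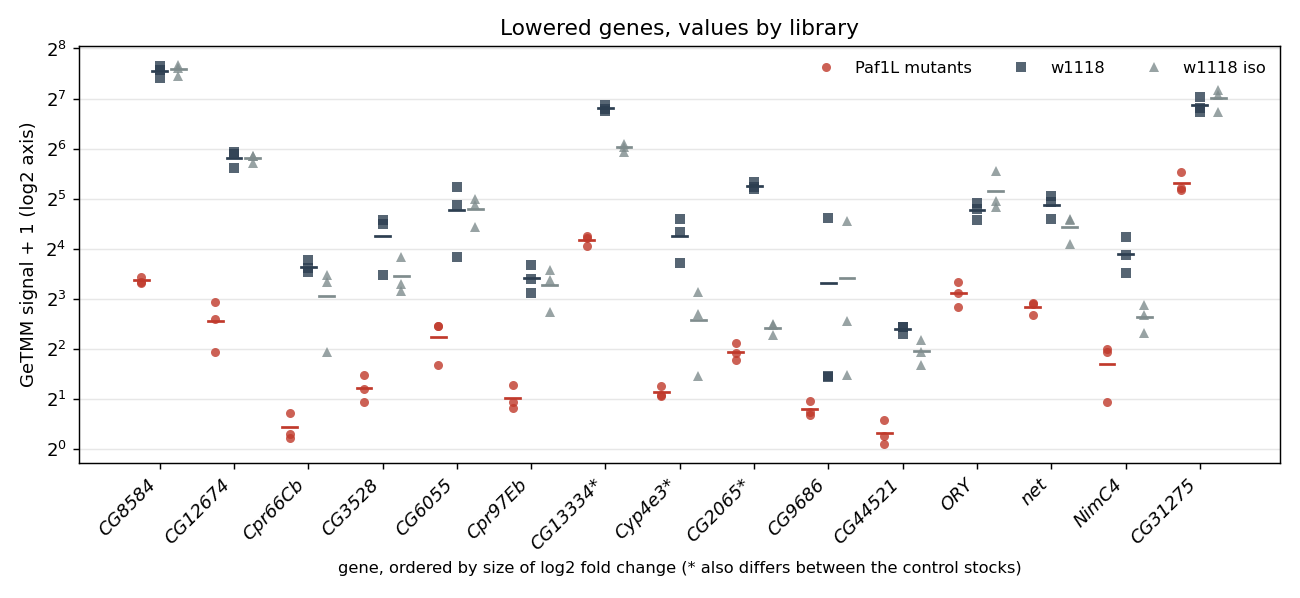
GeTMM signal + 1 on a log2 axis in each library for the 15 lowered genes with the largest log2 fold change among those whose Paf1L libraries all lay below all controls. Points are libraries, bars are group mean signals (n = 3 each), and an asterisk marks a gene that also differed between the control stocks. CG8584 lies at 9.02 to 9.85 in Paf1L testes, while its control libraries lie at 168 to 203.

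The lowered genes included 3 transcription regulators and 1 growth factor gene, beside 12 raised regulators and 2 raised growth factor genes. net, a basic helix-loop-helix repressor known from wing veins, had 5.44, 6.43 and 6.60 in Paf1L testes, against 23.1, 32.3 and 29.7 in w1118 and 22.8, 23.1 and 16.1 in w1118 iso (log2 fold change -1.81, SE 0.13). upd1, the JAK/STAT ligand made by the hub of the testis, had 8.81, 7.14 and 7.94 in Paf1L testes, against 13.1 to 21.2 over both control stocks (log2 fold change -1.08, SE 0.14). Both were separated from all controls, as was lmd, a zinc finger factor of muscle development (1.43 ± 0.261 in Paf1L testes and 5.84 ± 1.15 in controls). The other lowered regulator, RunxB, a Runt family factor, differed between the stocks: it had 0.515, 1.43 and 0.380 in Paf1L testes, against 9.43 to 13.9 in w1118 and 0.196 to 0.318 in w1118 iso, where its direction turned (log2 fold change 0.45, limma adjusted p = 0.234). upd1 was the only called member of 18 hub and cyst cell markers, of which 2 were higher and 4 lower at any fold. Without Paf1L replicate 3 the lower members were 2, and against w1118 iso alone none was higher and 2 were lower. The summed signal of these markers was 815 to 865 in Paf1L testes and 780 to 856 in controls, so the ranges overlapped.

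Cuticle genes moved in both directions. Cpr66Cb, a structural protein of cuticle, had 0.226, 0.167 and 0.659 in Paf1L testes, against 11.2, 12.6 and 10.7 in w1118 and 2.84, 9.15 and 10.1 in w1118 iso (log2 fold change -2.86, SE 0.27). Cpr97Eb, of the same family, had 0.766, 0.921 and 1.42 in Paf1L testes, against 7.63 to 11.9 in w1118 and 5.66 to 11.0 in w1118 iso (log2 fold change -2.30). TwdlG, a cuticle protein of the Tweedle family, was raised instead, at 3.27, 4.83 and 3.06 in Paf1L testes, against 0.0945 to 0.746 in w1118 and 0 to 0.338 in w1118 iso (log2 fold change 1.85). Of 121 cuticle genes with values, 22 passed the filter on low values. Among these 22, 2 were raised and 3 lowered, against 1.11% and 1.27% of all tested genes. A gene as low in controls as TwdlG (mean 0.310) could pass only through groups in which it was higher. The count thus describes the genes that passed and not the family. ple, the tyrosine hydroxylase used for dopamine and cuticle pigment, had 40.5, 31.0 and 28.6 in Paf1L testes, against 55.5, 60.2 and 273 in w1118 and 236, 55.7 and 74.5 in w1118 iso. It was lowered (log2 fold change -1.55, limma adjusted p = 0.0088), although 1 library of each stock stood far above the rest. CG9686 had the same pair of high controls (23.5 in w1118 replicate 3 and 22.5 in w1118 iso replicate 1), and its call was lost without any 1 of the Paf1L libraries (limma adjusted p of 0.0757, 0.0674 and 0.0513 without replicates 1, 2 and 3).

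Some immune and blood cell genes were lowered, with wide spread, while PPO1, a prophenoloxidase of blood cells, was raised. PPO1 lost its call without w1118 replicate 3, w1118 iso replicate 1, Paf1L replicate 1 or Paf1L replicate 2. Its limma adjusted p was then 0.0534, 0.0545, 0.0786 and 0.114, with log2 fold changes of 1.45 to 1.69. Whether PPO1 differed between the control stocks is not given here. NimC4, a phagocytosis receptor, had 0.929, 3.00 and 2.81 in Paf1L testes, against 13.6, 10.5 and 17.7 in w1118 and 5.39, 6.36 and 4.00 in w1118 iso (log2 fold change -1.62, SE 0.36). Against w1118 iso alone it did not pass the test (log2 fold change -0.999, limma adjusted p = 0.102); against w1118 alone its log2 fold change was -2.25. BomBc2, a Bomanin induced by Toll signalling, had 6.44, 6.81 and 10.3 in Paf1L testes, against 18.9, 25.2 and 44.3 in w1118 and 17.9, 24.3 and 16.0 in w1118 iso (log2 fold change -1.46, SE 0.40). Its call was lost without Paf1L replicate 1 (limma adjusted p = 0.0547). BomS2 and BomS3, which overlapped the controls, lost their calls without any 1 of w1118 replicate 3, w1118 iso replicates 1 and 2 and Paf1L replicates 1 and 2, and BomS3 also without Paf1L replicate 3 (limma adjusted p of 0.0548 to 0.197). The 3 Bomanins were the lowered members of 19 tested immune effectors, and no effector on that list was raised (1.27% and 1.11% over all tested genes). None of the 3 Bomanins was called against each stock alone. Apoltp, a lipid transfer protein of the fat body, was the lowered member of 10 tested fat body genes and lost its call without w1118 iso replicate 1 (log2 fold change -0.97), Paf1L replicate 1 or Paf1L replicate 2 (limma adjusted p of 0.0564 and 0.0535). At any fold 1 of these 10 genes was lower and 0 were higher, and their median log2 fold change was 0.25. The median turned to -0.49 without Paf1L replicate 3 and to -0.07 without w1118 iso replicate 3. The summed signal of muscle markers was 1340 to 1515 in Paf1L testes and 1853 to 2226 in controls, without overlap. Their mean log2(signal + 1) did overlap, at 4.78 to 5.16 in Paf1L testes and 5.15 to 5.48 in controls. Of 22 tested members 11 were lower and 1 higher at any fold. None of the muscle markers was at 0 in every library. Without Paf1L replicate 1 or 2 the lower members were 3 and 4; with each library rescaled to a common total they were 5, and against w1118 iso alone 2. Fat body markers summed to 54.1, 52.7 and 448 in Paf1L testes and to 47.5 to 274 in controls. The summed signal of immune effectors overlapped too, with the lowest library at 59.9 in Paf1L testes and at 75.1 in controls. The part of muscle, fat body or blood cell content in these results was not tested.

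Lowered genes of metabolism and detoxification often differed between the control stocks. Of 14 lowered enzyme genes, 10 also differed between the stocks, against 29.5% of all lowered genes, and 3 were called against each stock alone. Of the 12 raised enzyme genes 3 differed between the stocks, against 21.5% of all raised genes, and 7 were called against each stock. These groups were formed after the calls were seen. Cyp4p1, a cytochrome P450, had 4.78, 3.25 and 4.68 in Paf1L testes, against 51.8, 30.7 and 33.7 in w1118 and 5.33, 4.82 and 5.23 in w1118 iso. Cyp12d1-d, another cytochrome P450, was at 0 in all Paf1L and all w1118 iso libraries and at 27.0, 13.3 and 18.6 in w1118. Against w1118 iso, Cyp4p1 did not pass the test (log2 fold change -0.24, limma adjusted p = 0.475), and Cyp12d1-d was listed at 0 in both groups. Cyp12d1-d has a near-identical copy, Cyp12d1-p, so reads of the pair can be assigned to either. Of 58 tested cytochrome P450 genes, 1 was raised and 4 were lowered, against 1.11% and 1.27% of all tested genes. All 4 lowered ones differed between the stocks, and none of the called genes was called against each stock. At any fold 2 were higher and 16 lower, but 4 were lower against w1118 iso alone and 23 against w1118 alone. Pepck1, the first step of gluconeogenesis, had 79.4, 76.0 and 102 in Paf1L testes, against 255 to 303 in w1118 and 129.5 to 180.0 in w1118 iso (log2 fold change -1.30). It was separated from both stocks, which also differed from each other; it was chosen after its values were seen.

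Many called genes also differed between the control stocks. Between the stocks, 949 of the 10925 tested genes differed at any fold (8.69%), 564 higher (5.16%) and 385 lower (3.52%) in w1118 iso. Of the 121 raised genes 26 differed between the stocks (21.5%), and of the 139 lowered genes 41 did (29.5%). These shares and the calls rest on the same control libraries. The direction was uneven: 22 of the 26 raised genes were higher in w1118 iso than in w1118 and 4 were lower, while all 41 lowered genes were lower in w1118 iso. Set against w1118 iso alone, 25 of these lowered genes and 10 of the raised genes that were higher in w1118 iso did not pass the test at any fold. Without w1118 replicate 1 the marked genes were 17 raised and 27 lowered. In a stricter rule that asked for the call against each stock alone, 79 genes were raised (0.723%) and 51 lowered (0.467%), which is 65.3% of the raised and 36.7% of the lowered set.

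Single genes show how far a stock can set a call. CG33669 had 223, 216 and 218 in Paf1L testes, against 2.02, 0.955 and 1.62 in w1118 and 165, 171 and 139 in w1118 iso. Its log2 fold change was 3.47 against the mean of both stocks, 6.46 against w1118 and 0.47 against w1118 iso. RabX2, a small GTPase of the Rab family, was at 0 in all Paf1L libraries and at 0, 0 and 0.103 in w1118 iso, against 18.6, 23.0 and 18.5 in w1118. CG32006 had 21.5, 25.8 and 24.1 in Paf1L testes, against 2.33 to 3.68 in w1118 and 25.2 to 30.6 in w1118 iso, so its direction turned with the stock (log2 fold changes of 2.66 against w1118 and -0.23 against w1118 iso). CG43050 was likewise close to w1118 iso (means of 38.2 in Paf1L testes, 7.84 in w1118 and 37.3 in w1118 iso), and it lost its call without Paf1L replicate 3 (limma adjusted p = 0.0519). CG33307 lay near 0 in Paf1L and in w1118 iso testes and at 11.9 to 31.1 in w1118. Other strongly lowered genes without a role given here kept apart from both stocks: CG3528 had 1.31, 0.916 and 1.77 in Paf1L testes, against 10.1 to 22.8 in w1118 and 7.91 to 13.4 in w1118 iso. CG31275 had 34.9, 36.2 and 45.2 in Paf1L testes, against 106 to 130.3 in w1118 and 105 to 143 in w1118 iso. CG13334 was lowered against each stock despite a stock difference, at 15.7, 18.0 and 17.6 in Paf1L testes, against 107 to 117 in w1118 and 60.5 to 67.4 in w1118 iso (log2 fold changes of -2.63 and -1.85).

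**Figure D3:**
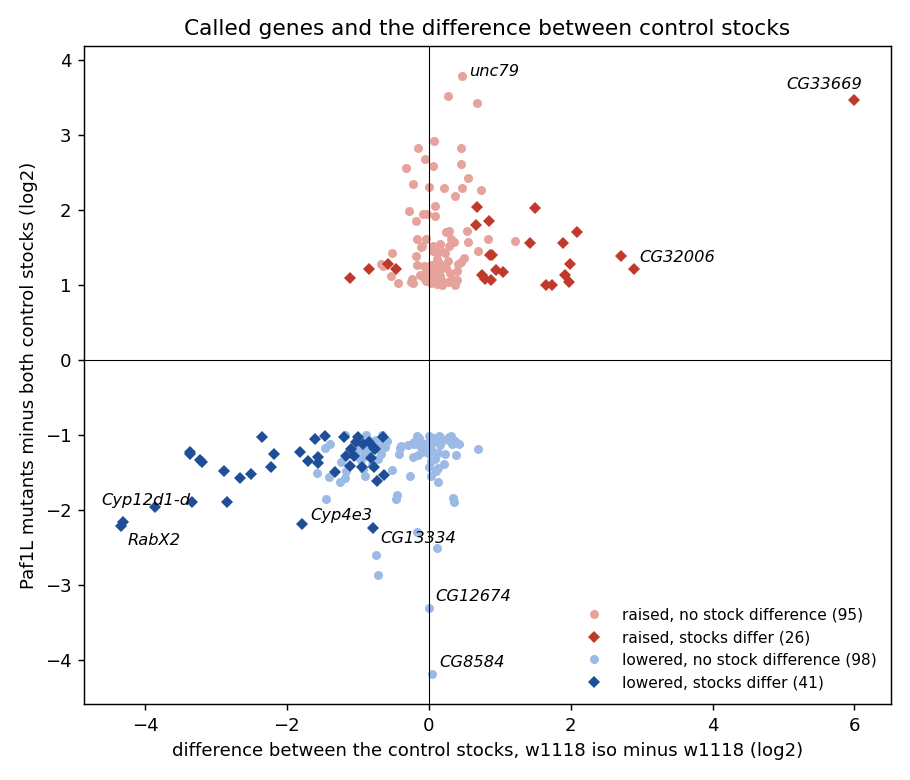
Log2 fold change of Paf1L testes against both control stocks (vertical axis) and log2 difference between the control stocks, w1118 iso minus w1118 (horizontal axis), for the 121 raised and 139 lowered genes. Diamonds are the 26 raised and 41 lowered genes whose stocks differed; CG33669 lies far right at 5.99 and the marked lowered genes all lie left of 0, while CG8584, CG12674 and unc79 lie near 0.

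Called genes were spread over the chromosomes unevenly. The X chromosome had 31 raised genes (1.77% of its 1749 tested genes) and 15 lowered genes (0.858%), while 2R had 14 raised (0.633% of 2210) and 38 lowered (1.72%). Chromosome 3R had 31 of each, and chromosome 4 had 2 raised genes (2.60% of 77) and none lowered. The Y chromosome, with 16 tested genes, had 3 raised (18.8%) and 4 lowered (25%). Stock differences were unevenly placed too: they covered 11.1% of tested genes on X, 11.2% on 2L and 11.9% on 2R, against 5.63% on 3L and 4.84% on 3R. Of the marked lowered genes 16 lay on 2R, 11 on 2L and 9 on X, against 3 on 3L and 2 on 3R. The marked raised genes were 11 of the 31 on X, 8 on 2L, 3 on 2R and 1 on chromosome 4, against 0 on 3L and 2 of the 31 on 3R. Genotype of the chromosomes and loss of Paf1L cannot be told apart for these genes.

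Sorted spermatocytes of other flies gave a readout that the calls had not used, in columns that each join 2 libraries. Of the 112 raised genes that could be tested there, 84 were also raised in sorted Paf1L spermatocytes (75%, against 6.36% of all genes tested in sorted cells), none was lowered and 109 had a higher value. These 84 are 15% of the 559 genes raised in sorted cells and tested in both tables. Of the 79 lowered genes that could be tested, 24 were lowered in sorted cells (30.4%, against 1.44%), which is 18.0% of 133, and 7 were raised; the other 60 lowered genes were too low in sorted cells to be tested. The stock mark split these counts. Of the raised genes, 73 of 88 without a stock difference and 11 of 24 with one were raised in sorted cells; of the lowered genes, 23 of 58 and 1 of 21 were lowered. The difference between marked and unmarked genes was not tested.

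By role, all 10 raised adhesion and guidance genes and all 6 raised neuropeptide, hormone and receptor genes were raised in sorted spermatocytes too. So were all 3 tested raised channel genes, 9 of 12 regulators, 9 of 11 enzyme genes, 4 of 5 chemosensory genes and 2 of 3 transmitter genes. These counts stand beside 75% of all raised genes tested there. None of the 5 lowered neuropeptide, hormone and receptor genes could be tested in sorted cells. unc79 had 118, 107 and 147 in sorted Paf1L spermatocytes, against 3.50, 1.81 and 2.39 in sorted controls (log2 fold change 5.15, limma adjusted p = 6.57e-10). Cad99C had 80.8, 64.7 and 73.9 in sorted Paf1L spermatocytes, against 3.02, 3.32 and 1.41 in sorted controls (log2 fold change 4.41). The 2 tables were normalized separately, so only the direction and the call are set side by side. The Y-linked genes kl-2, kl-5 and CCY were lowered there as well (log2 fold changes of -1.57, -2.22 and -1.76), as were kl-3 (-1.44) and WDY (-1.83), and ORY was lower without passing the fold limit (-0.88). Pp1-Y1 went the other way and was raised in sorted Paf1L spermatocytes (log2 fold change 3.84, limma adjusted p = 5.99e-08). ND-51L1 (-2.06), net (-1.85) and upd1 (-2.42) were lowered in sorted cells. Of the lowered immune, basement membrane, lipid and transporter genes, 6 could be tested in sorted cells (1, 1, 1 and 3). These classes were put together after their calls were seen. None of the 6 genes was lowered there, against 30.4% of all lowered genes tested, but so few genes cannot show a difference from that share.

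**Figure D4:**
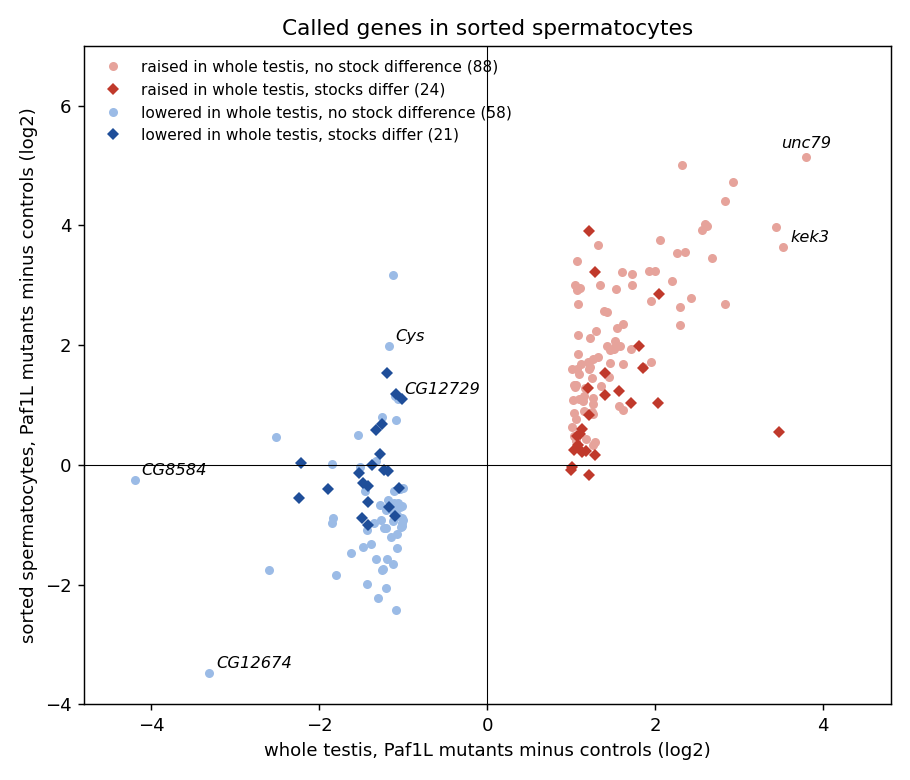
Log2 fold change in sorted spermatocytes (vertical axis) and in whole testes (horizontal axis), Paf1L mutants minus controls, for the 112 raised and 79 lowered genes tested in both tables. Raised genes lie mostly above 0 in sorted cells (109 of 112), lowered genes lie on both sides, and CG8584 lies near 0 there.

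Many called genes went further in Paf1L testes than in Cdc73L or Ctr9L testes, and few went further than in Leo1L testes. Of the 121 raised genes, 58 were higher than in Cdc73L, 48 than in Ctr9L and 4 than in both Leo1L crosses, by the same limits (0.906%, 0.741% and 0.101% of all tested genes differed in either direction). Of the 139 lowered genes, 20, 13 and 3 were lower than in these mutants. No called gene was beyond the fold limit in the other direction. Only 5 called genes were beyond all the other mutants: CG8584, CG12674 and CG12729 among the lowered and CG32333 and Ret among the raised. CG32333 had 15.5, 16.0 and 12.3 in Paf1L testes, against means of 7.15 ± 0.380 in Leo1L and 5.62 ± 0.0932 in inverted-cross Leo1L testes and 0.699 to 1.56 in the controls. Ret averaged 8.88 ± 1.19 in Paf1L testes, 3.35 ± 1.09 in Leo1L and 3.14 ± 0.388 in inverted-cross Leo1L testes. These contrasts share the Paf1L libraries with the calls.

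Most of the other lists held no called gene. No member of the cytosolic ribosomal proteins (92 tested), mitochondrial ribosomal proteins (72), proteasome subunits (48), transcription elongation and termination factors (31), meiosis genes (17), early germline genes (17) or heat shock genes (15) was called. Accessory gland genes had a median log2 fold change of -0.62 with none of 32 different at any fold, and the median turned to 0.90 without Paf1L replicate 1. Among 28 glutathione S-transferases 4 were higher and 6 lower at any fold, and 2 were higher without Paf1L replicate 1. Of 19 tested UDP-glycosyltransferases, enzymes of detoxification, Ugt49B2 was raised (log2 fold change 1.05; 0.98 without Paf1L replicate 2) and Ugt49B1, which differed between the stocks, was lowered (-1.35), with no difference from w1118 iso alone that passed the test (limma adjusted p = 0.379). The lists with the largest shares of lower members were the testis respiratory chain paralogs (13 of 19), the Y-linked genes (8 of 12), the sperm leucyl aminopeptidases (5 of 9), and the muscle genes and cup and comet transcripts (11 of 22 each), against 15% of all tested genes. For the aminopeptidases the lower members were 3 without Paf1L replicate 1 and 3 under quantile normalization. Of 48 proteasome subunits 14 were higher and 4 lower at any fold; 7 were higher without Paf1L replicate 3, and 1 or 2 were lower without w1118 replicate 3 or Paf1L replicate 1 or 2. Of 72 mitochondrial ribosomal proteins 11 were higher, which became 2 without Paf1L replicate 1, 6 without replicate 2, 7 without replicate 3 and 7 without w1118 iso replicate 1. Against w1118 alone 21 of them were higher and against w1118 iso alone 1; rescaling to a common total gave 22 and a fit of only the 9 libraries 2. Of 31 elongation and termination factors 7 were higher, which became 3 without Paf1L replicate 1 and 4 without replicate 3.

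**Figure D5:**
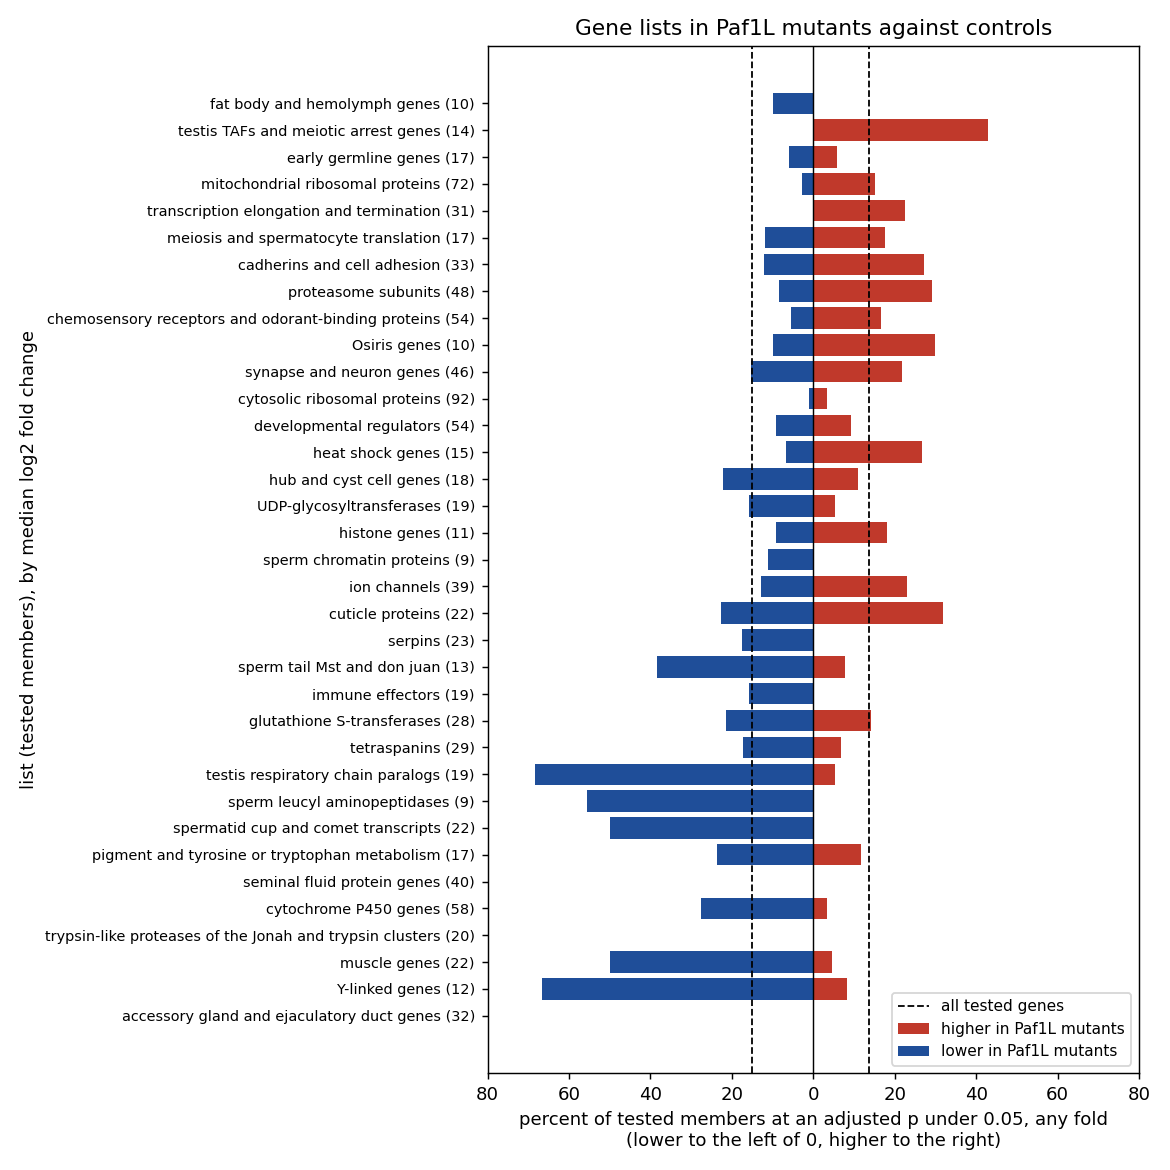
Percent of tested members that were lower (left of 0) or higher (right of 0) in Paf1L testes at an adjusted p under 0.05 and any fold, for lists with at least 9 tested members, ordered by median log2 fold change. Dashed lines mark the shares over all tested genes (15% lower, 13.8% higher); respiratory chain paralogs and Y-linked genes reach furthest left, and testis TAFs and meiotic arrest genes furthest right. The seminal fluid family shares members with the accessory gland list.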

How the data were processed

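RNA of whole testes had been sequenced after poly(A) selection, per the labels. The authors deposited a table of GeTMM signal values per gene, scaled by them across libraries; whether they divided by gene length is not stated, so levels are not compared between genes. STAR, Salmon, edgeR 3.34.0, DESeq2 and build dm6 are named in the submitters' processing notes with no role or order; the annotation used is not given in the sources used here. Low values lay near whole multiples of 1 read (within 0.1 of a step) in 54.7 to 86.9% of cases, which gave the depth estimate. That estimate takes 1 read to be worth the same signal in each gene of a library.

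Genes with a mean signal of at least 1 over the 21 whole-testis libraries (10925 of 13659) entered a linear model of log2(signal + 1) in limma 3.58.1 (R 4.3.3). A gene low in controls could pass this filter through the mutant libraries, so counts within lists cover only the genes that passed. The fit had 1 coefficient for each of 7 groups, an intensity trend and Benjamini-Hochberg adjustment, and Paf1L was set against the mean of the control stocks. The sorted table was fitted apart (9495 genes). The script was tested on simulated data with known changes. Positions come from Ensembl release 115 (BDGP6.54), matched for 13640 genes by symbol or synonym.

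Named genes were the PAF1 genes, the top 15 of each direction by size of change among called genes without overlap with controls, up to 4 called members per list, and up to 3 per direction with the largest stock difference; others were chosen after their values were seen. Members, lists and roles were chosen with earlier results of these data known. Alternatives covered the pseudocount, the filter, the scaling, the control stock, a replicate block, an accessory gland covariate and each replicate left out.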

Additional observations from a re-analysis of the deposited data

Results flagged for a closer look

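CG32333 and Ret were higher in Paf1L testes than in both Leo1L crosses, by log2 differences of 1.08 and 1.23 (limma adjusted p = 0.00107 and 0.00847). CG12729 and CG8584 were lower in Paf1L testes than in both Leo1L crosses, by log2 differences of -1.26 and -3.81 (limma adjusted p = 4.84e-07 and 9.51e-19). In all 4 genes the difference itself was tested.

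Some genes were lowered in Paf1L whole testes and raised in sorted Paf1L spermatocytes, with every library on its own side of the controls in both tables; the difference between the tables was not tested. CG12729 averaged 40.6 ± 1.17 in sorted Paf1L spermatocytes and 18.5 ± 3.35 in sorted controls (SD, n = 3 each; log2 fold change 1.11), and 30.0 ± 4.99 in Paf1L testes, against 64.0 ± 9.51 in controls. Cys, a cystatin-like protease inhibitor, had a log2 fold change of 1.98 in sorted cells, with 3.88, 14.4 and 0.644 in sorted Paf1L spermatocytes, against 0.127 to 0.373 in sorted controls. The others were CG31676 (1.54), mnd (1.19) and CG9593 (1.16), and sorted values of all 3 were under 6 in each library. CG31676 and mnd also differed between the control stocks. Groups of 3 libraries were too small for the search for single outlying libraries.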

How the results depend on the processing

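A pseudocount of 0.1 gave 193 raised genes, 46 of which differed between the stocks. A pseudocount of 5 gave 46 raised and 56 lowered genes, with 6 and 21 differing between the stocks, 33 and 24 called against each stock, and 55 and 13 called in sorted cells as well. A mean signal of at least 5 left 65 raised genes, 37 raised against each stock and 25 lowered genes that differed between the stocks. With only the 9 libraries in the fit, 13 raised genes differed between the stocks. Against w1118 alone 184 genes were raised and 297 lowered, of which 73 and 104 differed between the stocks; against w1118 iso alone 91 were lowered, and 13 raised and 11 lowered genes differed. Without the fold limit the counts were 1513 and 1640, with 208 and 286 differing between the stocks and 735 and 795 called against each. CG32006 turned to -0.23 against w1118 iso alone; the cause of these changes was not tested. Rescaling each library to a common total gave 149 raised and 117 lowered genes (raised share 56.0%, against 46.5%).

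Leaving out 1 library at a time gave 117 to 131 raised and 107 to 180 lowered genes, 17 to 28 and 27 to 50 differing between the stocks, and 73 to 88 and 43 to 61 called against each stock. In sorted cells it gave 75 to 82 and 21 to 27. Replicate numbers did not pair the samples (correlations of deviations from -0.41 to 0.29 for the same number); with the replicate block 120 genes were raised and 137 lowered, and the sorted counts were 83 and 24. At these depths, genes with signals near 0.3 in controls rest on about 3 reads per library.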
